A study of Mus musculus with 180 samples.

Results

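Membrane-bound ribosomes of hippocampal Camk2a neurons were compared between sleep-deprived and sleeping mice in the 30 libraries, of 180 in the series, that were captured through an HA tag from the pellet fraction. They came from 14 sleep-deprived (SD) and 16 sleeping (Sleep) male mice, 1 library a mouse. Every mouse, controls included, carried the transgene Tg(Camk2a-cre)T29-1Stl of a B6.Cg line, crossed to B6N.129-Rpl22tm1.1Psam/J, so that neurons in which the Camk2a promoter drove Cre carried HA-tagged Rpl22, a protein of the large ribosomal subunit. The groups were 8 untrained mice that slept (NoCFC Sleep), 7 untrained mice kept awake (NoCFC SD), 8 mice that slept after contextual fear conditioning (CFC Sleep) and 7 conditioned mice kept awake (CFC SD). The labels give neither the age of the mice nor the length of the sleep deprivation. They name the tissue as brain and the title of the series names the hippocampus. A transgenic promoter decides which cells carry the tag, and the pellet holds whatever else sediments with the membranes.

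Secreted proteins, receptors and ion channels are made by ribosomes docked on the endoplasmic reticulum (ER), where chaperones such as Hspa5 (BiP) fold them. When the folding load rises, the sensors Ern1 (IRE1) and Atf6 switch on chaperone genes, in part through a promoter sequence called the ER stress response element. Neuronal firing separately induces activity-regulated genes, among them transcription factors such as Fos and effectors such as Arc. A ribosome capture reads how much of each mRNA is bound to tagged ribosomes. In bulk samples a gene's lower level in one cell type and a smaller number of those cells cannot be told apart.

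Total counts ranged from 15.1 M to 26.95 M (mega-counts) a library, with a median of 18.2 M. Camk2a mRNA was 0.75 higher on the log2 scale in these libraries than in the uncaptured membrane Input of the same mouse numbers. Markers of CA1 neurons were higher by a median of 1.13, with 6 of 10 at least 2-fold higher and past the test. Other lists of excitatory neurons moved less. The general excitatory list had a median of 0.75, with 1 of 15 at least 2-fold higher. Dentate granule markers had a median of 0.54, with 1 of 12 higher and 1 lower. CA3 and CA2 markers had a median of -0.18, with 1 of 13 higher. Markers of other cells were lower than in Input, with log2 medians of -1.63 for astrocytes, -1.69 for oligodendrocytes, -1.90 for microglia and -1.301 for inhibitory neurons, but none of these lists had a member at 0 in all libraries. The summed choroid plexus markers ran from 86.9 to 2408 CPM (counts per M of TMM-scaled library total), and CFC SD replicate 22, NoCFC Sleep replicate 2 and CFC Sleep replicate 14 had the highest sums. CFC SD replicate 22 also had the highest sums of astrocyte and oligodendrocyte markers. Mouse numbers fall into runs, with 1 to 11 all NoCFC, 12 to 22 all CFC and 23 to 30 holding 2 mice of each group. Values within the runs are therefore given beside the main results of some genes. No source used here says that these runs were batches.

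Sleep loss changed the ribosome-bound level of 444 of 14968 genes tested, or 2.97%, averaged over both training arms (edgeR quasi-likelihood F-test, Benjamini-Hochberg adjusted p under 0.05). Of these, 324 rose (2.16% of genes tested) and 120 fell (0.802%). The changes were small: the median was 0.26 among the genes that rose and -0.27 among those that fell, as log2 fold changes of SD minus Sleep, and 24 genes in each direction changed by at least 0.5. The median over all genes tested was 0.00. With upper-quartile scaling the calls were 215 higher and 167 lower, so the share of higher calls was 56.3% in place of 73.0%. Leaving out NoCFC SD replicate 10 lowered the number of higher calls to 211. Without the 3 libraries with most choroid plexus markers, 335 genes passed, 241 higher and 94 lower. Among the genes that rose, 35.2% were at least 2-fold enriched in the membrane over the cytosolic capture and past the test for that, against 25.8% of those that fell and 28.99% of all genes tested.

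**Figure D1:**
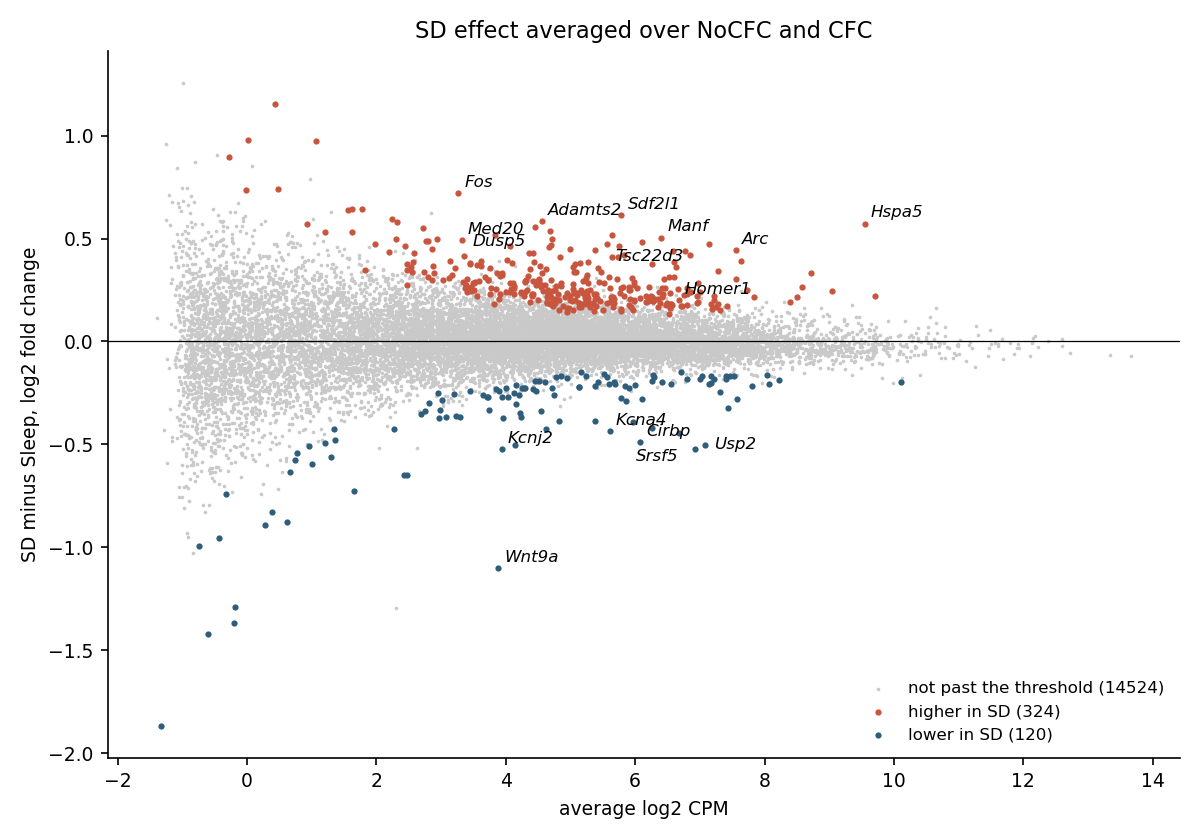
SD minus Sleep log2 fold change (vertical) against average log2 CPM (horizontal) for the 14968 genes tested in membrane-bound Camk2a-neuron ribosomes, averaged over the training arms. The 324 genes in red rose and the 120 in blue fell at an adjusted p under 0.05, and most lie within 0.5 of 0; Wnt9a stands lowest among genes with an average log2 CPM of at least 3.

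Among ER chaperones and other genes of the unfolded protein response, 13 of 26 rose. All of the list were tested and none fell, against 2.16% higher and 0.802% lower of all genes tested, and their median log2 change was 0.21. The 13 were Hspa5, Sdf2l1, Manf, Pdia4, Creld2, Xbp1, Pdia6, Dnajc3, Hsp90b1, Pdia3, Herpud1, Calr and Dnajb11. Their changes ran from 0.20 in Dnajb11, an Hspa5 co-chaperone, to 0.61 in Sdf2l1, a partner of it in the ER lumen. The same 13 passed without the 3 libraries richest in choroid plexus markers, and 11 to 14 members passed with 1 library left out. Dnajb11 lost its call with upper-quartile scaling (adjusted p = 0.0518) and in 8 of the 30 fits without 1 library, and Herpud1 lost it without NoCFC SD replicate 9 (adjusted p = 0.0594).

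A sequence shared by promoters of this list is shown because it was found in 6 of the 13 genes that rose. Not every member has a promoter entry, and Manf, which rose, has none and was not searched. It is the ER stress response element, searched as CCAAT, any 9 bases and CCACG on both strands of the RefSeq promoters of GRCm38.p6, each holding 250 bases before and 50 after the start. It was present in 7 of the 20 list members with a promoter entry (35.0%), in 16 of 11147 tested genes with one (0.144%) and in 37 of all 27025 (0.137%). The element is known from chaperone genes, and the list was chosen with earlier results of these data known. A higher share in the list could thus be foreseen and is not a result on sleep loss. The element is in capitals, 5′ to 3′ on the gene's strand, with 30 flanking bases on either side, or 5 for Hspa5. The promoter of Hsp90b1 holds 2 matches, and only the first is within the printed stretch. In Creld2 and Calr it lies in reverse, so that its complement reads from right to left.
Hspa5, chr2:34772020-34772048, plus strand: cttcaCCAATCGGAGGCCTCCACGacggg
Creld2, chr15:88819490-88819568, plus strand: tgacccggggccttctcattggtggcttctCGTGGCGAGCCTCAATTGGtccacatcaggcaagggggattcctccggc
Pdia6, chr12:17266461-17266539, plus strand: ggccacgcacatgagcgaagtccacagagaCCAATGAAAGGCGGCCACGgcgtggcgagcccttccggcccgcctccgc
Dnajc3, chr14:118937797-118937875, plus strand: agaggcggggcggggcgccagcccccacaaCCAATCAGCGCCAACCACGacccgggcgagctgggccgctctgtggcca
Hsp90b1, chr10:86705608-86705686, minus strand: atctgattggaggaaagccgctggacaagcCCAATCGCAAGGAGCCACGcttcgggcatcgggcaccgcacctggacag
Calr, chr8:84847045-84847123, minus strand: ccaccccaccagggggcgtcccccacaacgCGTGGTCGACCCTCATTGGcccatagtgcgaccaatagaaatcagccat
Canx, chr11:50325770-50325848, minus strand: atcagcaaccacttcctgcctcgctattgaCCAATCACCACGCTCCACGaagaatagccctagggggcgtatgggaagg

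The first 6 of these genes rose, and Canx, a membrane-anchored lectin chaperone, was at 0.07 ± 0.05 (log2, SE; adjusted p = 0.627). Over all genes that rose, 6 of 268 with a promoter entry held the element (2.24%), and those 6 are the chaperones above. None of the 84 that fell did, but at the 0.144% of tested genes a set of that size could be foreseen to hold none. A match is a stretch of letters and says nothing on its own of a factor's binding. The related element TGACGTGG was found in 1 of the 20 list members with an entry (5.0%), against 1.03% of tested genes with one. That member, Txndc5, is a disulfide isomerase and was at -0.04 ± 0.05 (log2, SE, adjusted p = 0.806).

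Hspa5, the main ER chaperone (chr2:34771970-34777547, GENCODE on GRCm38), ran from 496 to 608 CPM with a median of 546 in NoCFC Sleep, and from 567.9 to 983 with a median of 811 in NoCFC SD. In CFC Sleep it ran from 567 to 728 with a median of 695, and in CFC SD from 718 to 1571 with a median of 990. The groups overlapped in each arm; over all genes, every SD library lay above every Sleep library in 0.214% of genes in NoCFC and 0.16% in CFC, and below in 0.0668% and 0.0935%. All 14 SD mice were above the Sleep median of their arm for Hspa5. Its log2 change was 0.57 ± 0.08 (SE; adjusted p = 1.94e-05), and it was 0.44, 0.50 and 0.77 within mice 1 to 11, 12 to 22 and 23 to 30. Sdf2l1 (chr16:17130138-17132383) had medians of 39.4 and 58.2 CPM in NoCFC Sleep and SD, and of 47.2 and 64.3 in CFC Sleep and SD. Its change was 0.61 ± 0.11 (log2, SE; adjusted p = 9.45e-04), in the same direction in all 14 SD mice, although the lowest SD value of each arm lay within the Sleep range.

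Manf, a secreted ER-resident survival factor, ran from 57.8 to 73.8 CPM in NoCFC Sleep and from 69.8 to 110 in NoCFC SD, then from 67.5 to 92.3 in CFC Sleep and from 75.0 to 190 in CFC SD. Its log2 change was 0.50 ± 0.09 (SE; adjusted p = 0.00129). Exons of Manf overlap those of 3 other genes, and since the sources used here do not give the strand used in counting, its counts are uncertain. Pdia4, a disulfide isomerase, separated the CFC groups, with 115 to 144 CPM in Sleep and 149 to 285 in SD, but overlapped in NoCFC, with 100 to 114 and 109 to 179. Its change was 0.47 ± 0.07 (log2, SE; adjusted p = 3.63e-05). Creld2, another disulfide isomerase of the ER, changed by 0.46 ± 0.08 (log2, SE; adjusted p = 5.31e-04), with a median of 42.6 against 56.8 CPM in NoCFC and 45.9 against 58.2 in CFC. CFC SD replicate 29 held the highest value of Pdia4, and NoCFC SD replicate 9 the highest of Creld2 in its group.

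The transcription factor Xbp1, whose mRNA is spliced by Ern1, rose by 0.39 ± 0.07 (log2, SE; adjusted p = 0.00101). The sensors themselves gave 0.27 ± 0.09 for Ern1 (adjusted p = 0.128) and -0.01 ± 0.05 for Atf6 (adjusted p = 0.934). Gene counts do not show which form of Xbp1 mRNA was present. Further members that did not pass were Hyou1 at 0.18 ± 0.06, P4hb at 0.10 ± 0.05 and Dnajb9 at 0.01 ± 0.06, all log2 with SE, where Dnajb9 is a co-chaperone that binds Ern1. Hyou1 passed with the run of mouse numbers as a term (adjusted p = 0.0466) and without NoCFC SD replicate 11 (0.0412).

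Neighbouring steps of the secretory pathway held 2 calls. Of 19 genes of ER-associated degradation tested, 2 rose and none fell, against 2.16% and 0.802% of all genes tested, with a median of 0.04: Derl2, a channel component, by 0.25 ± 0.06 (log2, SE; adjusted p = 0.0175), and the ubiquitin-conjugating enzyme Ube2g2. The ligase Syvn1 and its partner Sel1l each gave 0.09 (log2; adjusted p = 0.516 and 0.394). None of 33 genes of the translocon, signal recognition and glycosylation passed (median 0.03), and none of 28 genes of transport between ER and Golgi (median -0.02). None of 18 targets of the integrated stress response passed either (median 0.05), among them Atf4 at 0.11 ± 0.05 and Ddit3 (CHOP) at 0.23 ± 0.08, log2 with SE. The symbol Ddit3 has 2 positions in GENCODE, which leaves its counts uncertain.

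Ube2g2 (chr10:77622275-77645993) and Med20, a subunit of the Mediator complex (chr17:47611582-47624418), were the only genes of 14968 (0.0134%) in which all 14 SD libraries lay above all 16 Sleep libraries, and no gene had all SD libraries below. Ube2g2 ran from 48.6 to 57.2 CPM in NoCFC Sleep and 54.5 to 62.9 in CFC Sleep, against 63.3 to 67.9 in NoCFC SD and 63.5 to 73.2 in CFC SD, a log2 change of 0.25 ± 0.04 (SE; adjusted p = 2.59e-05). Med20 ran from 6.97 to 9.40 and 6.81 to 8.88 CPM in the Sleep groups, against 10.1 to 14.3 and 10.1 to 13.6 in the SD groups, a change of 0.49 ± 0.06 (log2, SE; adjusted p = 3.93e-06). Both genes share exons with other annotated genes, which leaves their counts uncertain. The same holds for Pdia3, Pdia4, Pdia6, Hsp90b1, Derl2, Dnaja4, Dusp5, Banp, Slc44a5, Chpf2, Cd276 and Prkab2 among the genes called here, and for Dnajb9, Txndc5, Syvn1, Junb, Bdnf, Cdkn1a, Hspa1a, Hspa8, Wnt7b, Gria2 and Grin2b among those not called.

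**Figure D2:**
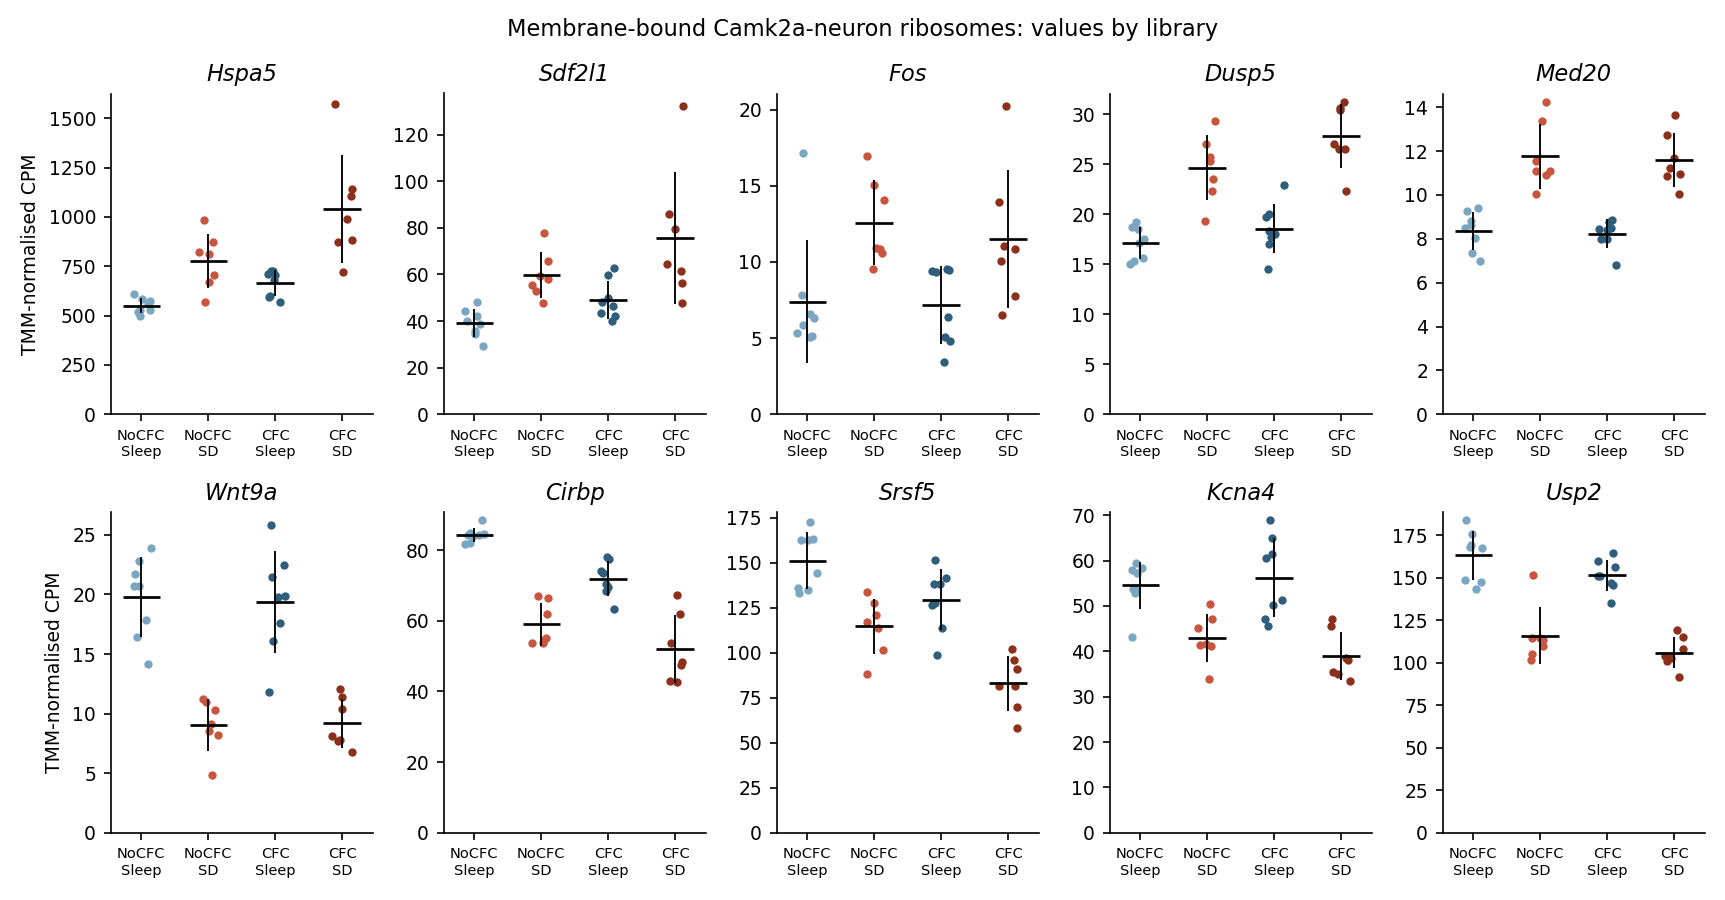
TMM-normalised CPM (vertical, from 0) of 10 genes in each membrane Camk2a library, by group on the horizontal axis; points are mice, horizontal bars are means and vertical bars are 1 SD. The upper row rose and the lower row fell with SD, and only for Med20 do all 14 SD points lie beyond all 16 Sleep points.

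Cytosolic chaperones of the heat shock response rose in part. Of 22 tested, 4 rose and none fell, against 2.16% and 0.802% of all genes tested, with a median of 0.12: Bag3, a co-chaperone of selective autophagy, by 0.43 ± 0.09 (log2, SE; adjusted p = 0.00539), Chordc1, an Hsp90 co-chaperone, by 0.31 ± 0.07, and the J-domain proteins Dnajb5 and Dnaja4 by 0.19 and 0.18. The calls of Dnajb5 and Dnaja4 were lost without the 3 libraries richest in choroid plexus markers (adjusted p = 0.0910 and 0.110) and with upper-quartile scaling (0.0570 and 0.0805), and in 10 and 20 of the 30 fits without 1 library; that of Dnaja4 was also lost with no filter on low counts (0.153). The inducible Hspa1a, at 0.14 ± 0.10, and the constitutive Hspa8, at 0.12 ± 0.05, did not pass.

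Activity-regulated genes rose in part: of 51 tested, 11 rose and none fell, against 2.16% and 0.802% of all genes tested, with a median log2 change of 0.12. The members called were the transcription factors Fos, Egr2, Fosl2, Nr4a1 and Nr4a2, the cytoskeletal effector Arc, the scaffold Homer1, the kinase Sik1, the secreted activin subunit Inhba, the phosphatase Dusp5 and the signalling inhibitor Spry4. Without the 3 libraries richest in choroid plexus markers 7 passed, and Fos (adjusted p = 0.0855), Egr2 (0.0818), Fosl2 (0.0826) and Spry4 (0.0575) did not. With 1 library left out 8 to 12 passed, and the calls of Egr2 and Fosl2 ended in 7 and 13 of the 30 fits. That of Fosl2 was also lost with upper-quartile scaling (0.0733) and with no filter (0.0931). The list was drawn up with earlier results of these data known.

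Fos (chr12:85473890-85477273) was low, with 5.05 to 17.2 CPM in NoCFC Sleep, 9.53 to 16.9 in NoCFC SD, 3.45 to 9.56 in CFC Sleep and 6.51 to 20.2 in CFC SD. The highest NoCFC Sleep value, of replicate 1, lay far above the next, 7.82, and the groups overlapped in both arms. Its log2 change of 0.72 ± 0.19 (SE; adjusted p = 0.0295) was the largest rise among genes with an average log2 CPM of at least 3, with 12 of 14 SD mice above the Sleep median of their arm. Leaving out 1 library ended the call of Fos in 3 of 30 cases, with adjusted p of 0.0620 without NoCFC SD replicate 9, 0.0588 without NoCFC SD replicate 10 and 0.0646 without CFC SD replicate 29, and omitting the filter on low counts gave 0.0860.

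Arc (chr15:74669083-74672570) had medians of 158 and 224 CPM in NoCFC Sleep and SD, and of 157 and 204 in CFC Sleep and SD. All 14 SD mice were above the Sleep median of their arm, and the change was 0.44 ± 0.09 (log2, SE; adjusted p = 0.00509); it was 0.69, 0.28 and 0.28 within mice 1 to 11, 12 to 22 and 23 to 30. Nr4a1, an orphan nuclear receptor, had medians of 74.8 and 122 CPM in NoCFC and of 79.7 and 97.5 in CFC, a change of 0.44 ± 0.10 (log2, SE; adjusted p = 0.00923), and of 0.76, 0.18 and 0.32 within the runs. Dusp5, a phosphatase of ERK kinases (chr19:53529109-53542431), separated the NoCFC groups, at 15.02 to 19.2 CPM in Sleep and 19.3 to 29.3 in SD. In CFC it ran from 14.6 to 22.9 in Sleep and from 22.3 to 31.2 in SD, and its change was 0.56 ± 0.06 (log2, SE; adjusted p = 3.29e-07).

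Other well-known members did not pass. Egr1 gave 0.12 ± 0.08, Junb 0.13 ± 0.07, Fosb 0.33 ± 0.11, Npas4 0.10 ± 0.18 and the growth factor Bdnf -0.08 ± 0.05, all log2 with SE. The prostaglandin synthase Ptgs2 was at -0.31 ± 0.11 (adjusted p = 0.134), with 13 of 14 SD mice below the Sleep median of their arm. It passed in DESeq2 (adjusted p = 0.0494) and without CFC Sleep replicate 13 (0.0347). The neuropeptide convertase Pcsk1 was at 0.16 ± 0.11 and the pentraxin Nptx2 at 0.03 ± 0.07. The cAMP response element TGACGTCA was found in the promoters of 6 of the 39 members with an entry (Btg2, Dusp1, Maff, Pcsk1, Plk2 and Scg2) and in 3.53% of tested genes, and none of those 6 passed the test.

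Cold-inducible RNA-binding proteins, known for rising when cells are mildly cooled, fell: both of the 2 listed did, against 0.802% of all genes tested. Cirbp (chr10:80165985-80172786) ran from 81.8 to 88.5 CPM in NoCFC Sleep and from 53.8 to 67.1 in NoCFC SD, with no overlap, and from 63.3 to 78.0 in CFC Sleep and 42.5 to 67.4 in CFC SD. Its log2 change was -0.49 ± 0.05 (SE; adjusted p = 2.69e-07), and within the runs of mouse numbers it was -0.47, -0.42 and -0.60. Rbm3 (chrX:8138975-8145880) had medians of 21.5 and 16.7 CPM in NoCFC Sleep and SD and of 17.6 and 13.5 in CFC, a change of -0.50 ± 0.07 (log2, SE; adjusted p = 2.03e-05). All 14 SD mice were below the Sleep median of their arm for both genes. An antisense gene overlaps exons of Rbm3, so its counts are uncertain. Brain temperature is not in the labels.

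Among 24 SR splicing factors and related genes tested, 4 rose and 1 fell, against 2.16% and 0.802% of all genes tested, with a median of 0.04. Srsf5 (chr12:80945504-80950507) ran from 133 to 172 CPM in NoCFC Sleep and 88.5 to 134 in NoCFC SD, and from 98.97 to 152 in CFC Sleep and 58.0 to 102 in CFC SD. The groups barely overlapped, and its log2 change was -0.52 ± 0.07 (SE; adjusted p = 8.66e-06). Rsrp1 rose by 0.42 ± 0.08, Srsf10 by 0.41 ± 0.07, Tra2a by 0.30 ± 0.07 and Luc7l by 0.20 ± 0.05, all log2 with SE, and the call of Luc7l was lost without the 3 libraries richest in choroid plexus markers (adjusted p = 0.0625). Srsf7 at 0.19 ± 0.06 and Srsf3 at 0.16 ± 0.05 did not pass. Srsf7 did pass with the run of mouse numbers as a term (adjusted p = 0.0498), in DESeq2 (0.0349) and in 7 of the 30 fits without 1 library. Hnrnpdl, an RNA-binding protein outside that list, fell by 0.44 on the log2 scale (SE 0.06; adjusted p = 9.29e-06).

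Clock genes and their outputs moved both ways: of 22 tested, 4 rose and 1 fell, against 2.16% and 0.802% of all genes tested, with a median of 0.05. Usp2, a deubiquitinase with circadian expression (chr9:44067021-44095627), had medians of 168 and 114 CPM in NoCFC Sleep and SD, and ran from 135 to 164 CPM in CFC Sleep and 91.5 to 119 in CFC SD, where the groups did not overlap. Its log2 change was -0.50 ± 0.05 (SE; adjusted p = 5.61e-08), the joint smallest adjusted p with that of Wnt9a. The repressor Nfil3 rose by 0.39 ± 0.09, the period gene Per2 by 0.27 ± 0.07, the repressor Bhlhe40 by 0.24 ± 0.06 and the activator Tef by 0.22 ± 0.04, all log2 with SE. The call of Per2 was lost without the 3 libraries richest in choroid plexus markers (adjusted p = 0.0650) and with upper-quartile scaling (0.0645), and in 17 of the 30 fits without 1 library. Per1 gave 0.06 ± 0.06, Nr1d1 -0.08 ± 0.05 and Dbp -0.19 ± 0.07 (adjusted p = 0.760, 0.571 and 0.177), while exons of Usp2, Dbp, Tef, Bhlhe40 and Nr1d1 overlap those of other genes.

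Targets of the glucocorticoid receptor rose in 2 of 16 cases and fell in none, against 2.16% and 0.802% of all genes tested, with a median of 0.15. Tsc22d3 (GILZ; chrX:140539528-140600659) ran from 30.6 to 39.4 CPM in NoCFC Sleep and 34.8 to 53.1 in NoCFC SD, and from 32.4 to 51.4 in CFC Sleep and 53.7 to 99.5 in CFC SD. Its groups overlapped in NoCFC and did not in CFC, and its log2 change was 0.47 ± 0.07 (SE, adjusted p = 3.63e-05). Within mice 1 to 11, 12 to 22 and 23 to 30 the change of Tsc22d3 was 0.17, 0.51 and 0.80. Errfi1, an inhibitor of EGF receptors, rose by 0.28 ± 0.06 (log2, SE; adjusted p = 0.00348). The chaperone-binding Fkbp5 gave 0.19 ± 0.06 (adjusted p = 0.105), the cell cycle inhibitor Cdkn1a 0.40 ± 0.12 (0.0698) and the kinase Sgk1 0.27 ± 0.09 (0.135). Cdkn1a passed in DESeq2 (0.0359) and in 2 of the 30 fits without 1 library (0.0437 without NoCFC Sleep replicate 4 and 0.0318 without CFC SD replicate 20), Fkbp5 without NoCFC Sleep replicate 24 (0.0230) and Sgk1 without CFC SD replicate 19 (0.00817).

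**Figure D3:**
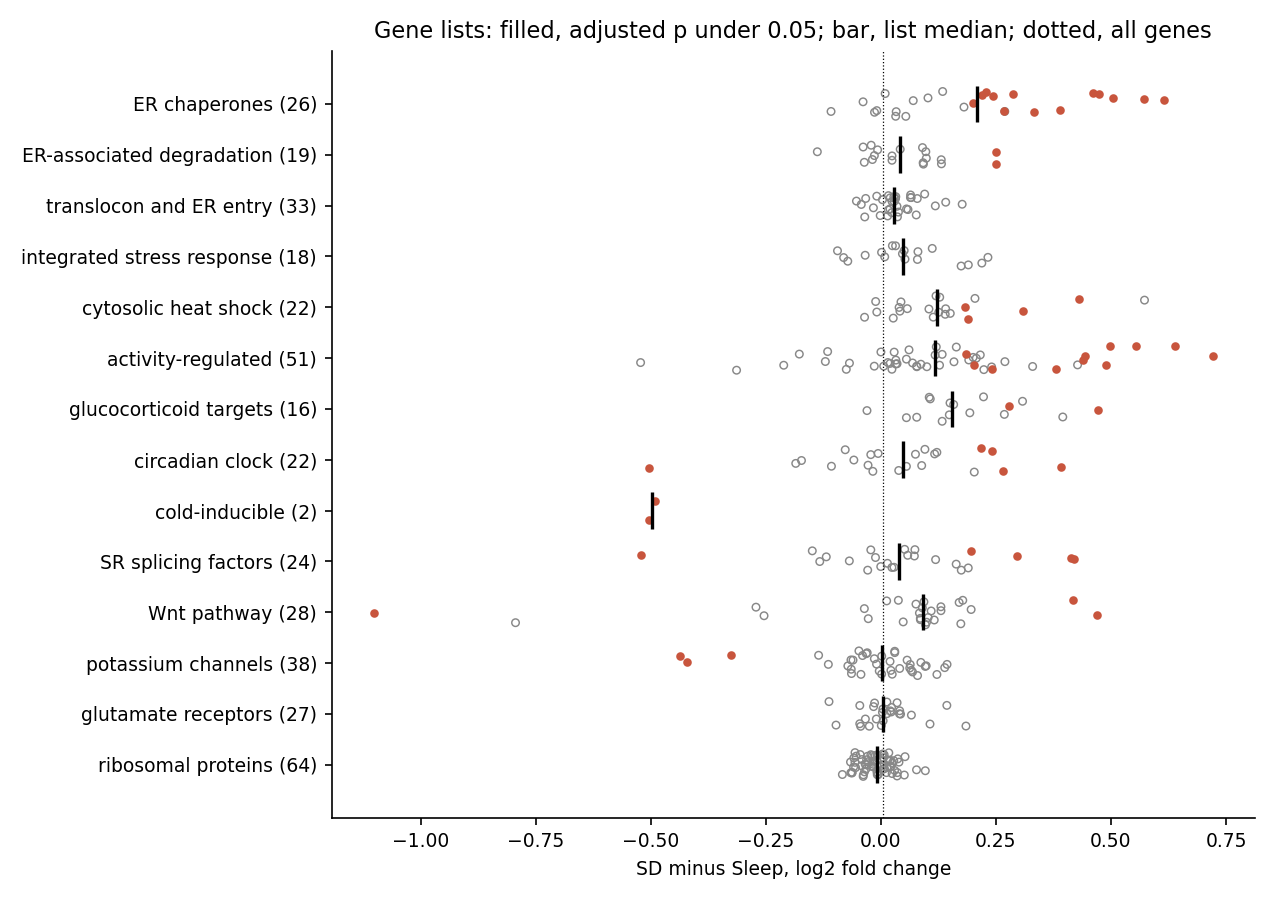
SD minus Sleep log2 fold change (horizontal) of each tested member of 14 gene lists, with the number tested in brackets; filled points passed an adjusted p of 0.05, open points did not, bars are list medians and the dotted line is the median of all genes tested. ER chaperones stand at a median of 0.21 with 13 filled points above 0, while both cold-inducible genes lie near -0.5.

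Among genes with an average log2 CPM of at least 3, the largest fall was that of Wnt9a, a secreted Wnt ligand (chr11:59306928-59333552). It ran from 14.1 to 23.9 CPM in NoCFC Sleep and 4.85 to 11.3 in NoCFC SD, with no overlap, and from 11.8 to 25.9 in CFC Sleep and 6.81 to 12.1 in CFC SD, where only the lowest Sleep value lay within the SD range. Its log2 change was -1.10 ± 0.11 (SE; adjusted p = 5.61e-08), with all 14 SD mice below the Sleep median of their arm, and within the runs it was -0.93, -0.93 and -1.62. Wnt7a, another ligand (chr6:91363981-91411363), rose, with 15.2 to 24.9 CPM in NoCFC Sleep and 25.9 to 31.6 in NoCFC SD, no overlap, and 17.6 to 35.0 in CFC Sleep and 24.8 to 39.0 in CFC SD. The change of Wnt7a was 0.47 ± 0.09 (log2, SE; adjusted p = 8.29e-04), and the receptor Fzd1 rose by 0.42 ± 0.10 (adjusted p = 0.0120). Over the Wnt pathway, 2 of 28 tested genes rose and 1 fell, against 2.16% and 0.802% of all genes tested, with a median of 0.09, and Wnt7b gave 0.10 ± 0.05 (log2, SE; adjusted p = 0.386).

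Of 38 potassium channel genes tested, 3 fell and none rose, against 0.802% and 2.16% of all genes tested, with a median of 0.00. Kcna4, a fast-inactivating channel of axons (chr2:107290639-107298502), had medians of 55.5 and 41.6 CPM in NoCFC Sleep and SD and of 55.9 and 38.0 in CFC, and its log2 change was -0.44 ± 0.06 (SE; adjusted p = 2.92e-05). Kcnv1, a modifier subunit that does not conduct by itself (chr15:45106284-45114920), had medians of 88.9 and 64.4 CPM in NoCFC and of 89.4 and 68.8 in CFC, a change of -0.42 ± 0.06 (adjusted p = 3.63e-05). The inward rectifier Kcnj4 fell by 0.33 on the log2 scale (SE 0.06; adjusted p = 3.56e-04). Kcnj2, another inward rectifier, is outside the list and fell by 0.52 (log2, SE 0.11; adjusted p = 0.00417), with -0.69 in NoCFC and -0.36 in CFC. For Kcna4, Kcnv1 and Kcnj2 the groups overlapped in both arms. Kcna1 at -0.05 ± 0.05 and Kcnd2 at -0.0036 ± 0.05 (log2, SE) did not pass.

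Of the remaining largest rises, Adamts2, a procollagen protease (chr11:50602084-50807573), had medians of 15.97 and 25.7 CPM in NoCFC Sleep and SD, without overlap, and of 21.5 and 32.0 in CFC, a log2 change of 0.58 ± 0.07 (SE; adjusted p = 2.94e-06). Ackr3, a scavenging chemokine receptor (chr1:90203980-90216751), had medians of 20.5 and 27.4 CPM in NoCFC and of 24.6 and 34.8 in CFC, a change of 0.50 ± 0.07 (adjusted p = 1.35e-05). The transporter-like Slc44a5 and the lysolipid transporter Mfsd2a rose by 0.52 each, the nuclear protein Banp by 0.53 and the extracellular matrix protein Olfml2b by 0.48, on the log2 scale. Among the falls, Tfrc, the transferrin receptor, was at -0.39 ± 0.07, the LIM protein Fhl2 at -0.39 ± 0.06, the chondroitin enzyme Chpf2 at -0.39 ± 0.06, the immune checkpoint protein Cd276 at -0.37 ± 0.08, the sphingomyelinase Smpd4 at -0.37 ± 0.07 and the axon growth protein Shtn1 at -0.37 ± 0.09, all log2 with SE and past the test. Within mice 1 to 11, 12 to 22 and 23 to 30 the log2 change of Tfrc was -0.60, -0.11 and -0.53. Mfsd2a and Tfrc are also well known from brain endothelium. The level of Mfsd2a in these libraries over Input was -1.23 on the log2 scale. Of the endothelial and mural markers 1 of 17 rose, Slc16a1, against 2.16% of all genes tested. Its call was lost with the 3 libraries left out (adjusted p = 0.0595), with upper-quartile scaling (0.0581) and in 10 of the 30 fits without 1 library. The summed level of these markers ran from 1575 to 2233 CPM in Sleep and from 1627 to 2288 in SD. The part of these markers in the values above was not tested.

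Most synaptic lists held no or single calls, against 2.16% higher and 0.802% lower of all genes tested. In lists of these sizes such counts are close to that share. None of 27 glutamate receptor genes passed (median 0.00), with Gria2 at 0.04 ± 0.05 and Grin2b at -0.03 ± 0.07 (log2, SE), and none of 14 GABA receptor genes (median -0.04). None of 30 sodium, calcium and HCN channel genes, 35 synaptic vesicle genes, 32 neuropeptide and secreted factor genes or 34 motor and cytoskeletal genes passed. Of 51 adhesion genes, 1 fell: Slitrk1, which organises synapses, by 0.20 on the log2 scale (SE 0.05; adjusted p = 0.0109). Of 26 postsynaptic scaffold genes, 1 rose, Homer1, by 0.20 ± 0.05 (log2, SE; adjusted p = 0.0165), and of 23 cholesterol genes 1 fell, Nsdhl, whose call was lost without the 3 libraries richest in choroid plexus markers (adjusted p = 0.0559), with no filter (0.136) and in 21 of the 30 fits without 1 library.

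No member passed among 64 ribosomal protein genes (median -0.01), 27 translation factors (-0.03), 48 nuclear genes of oxidative phosphorylation (-0.03), 18 of glycolysis (-0.06) and 20 aminoacyl-tRNA synthetases (-0.05). The 9 mitochondrially encoded genes tested had a median of -0.16, with 8 below 0, and none passed. Of all genes tested 2.97% passed, so 0 calls in lists of these sizes are close to that share. Of the tag and capture genes, Rpl22 gave -0.06 ± 0.05 and Camk2a -0.06 ± 0.05 (log2, SE; adjusted p = 0.675 and 0.662).

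Marker lists of other cell types had medians above 0 in SD and few calls, against 2.16% higher and 0.802% lower of all genes tested. Of 20 astrocyte markers 1 rose (Gjb6, by 0.44 ± 0.12, lost with the 3 libraries left out at an adjusted p of 0.0656, with upper-quartile scaling at 0.0506, with no filter at 0.0978 and in 5 of the 30 fits without 1 library), with a list median of 0.10. The medians were 0.10 for oligodendrocytes, 0.08 for oligodendrocyte precursors, microglia and inhibitory neurons, and 0.19 for choroid plexus, with no call in any of these lists. The excitatory list had a median of -0.07. All of these lists but the excitatory one had medians below 0 in NoCFC and above 0 in CFC. They were -0.05 in NoCFC and 0.26 in CFC for astrocytes, -0.16 and 0.34 for oligodendrocytes, and -1.27 and 2.03 for choroid plexus. For oligodendrocyte precursors they were -0.04 and 0.29, for microglia -0.05 and 0.25, and for inhibitory neurons -0.07 and 0.25. The summed astrocyte markers ran from 4762 to 9442 CPM in Sleep and from 5353 to 10971 in SD. Their part in the results for the other lists was not tested. The 3 libraries left out were chosen by choroid plexus markers, and CFC SD replicate 21, with 10707 CPM of astrocyte markers, stayed in.

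The SD effect was then taken in each training arm. In NoCFC 66 genes passed (0.441%), 51 higher (0.341%) and 15 lower (0.1%), and in CFC 110 passed (0.735%), 74 higher (0.494%) and 36 lower (0.241%). Upper-quartile scaling gave 32 higher and 18 lower in NoCFC, and 54 higher and 50 lower in CFC. DESeq2 called 141 genes in NoCFC and 207 in CFC. Leaving out 1 library gave 32 calls (without NoCFC SD replicate 28) to 74 (without CFC SD replicate 22) in NoCFC, and 61 (without CFC SD replicate 29) to 182 (without CFC Sleep replicate 13) in CFC. The difference between the arms, tested as an interaction, passed for 0 of 14968 genes in edgeR, with 712 at an unadjusted p under 0.05 and a smallest adjusted p of 0.811; DESeq2 and limma-voom also gave 0. In mice 1 to 22 the arm and the run of mouse numbers cannot be told apart.

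In NoCFC the smallest adjusted p values among rises were those of Ube2g2 (log2 change 0.34 ± 0.05, SE), Adamts2 (0.69 ± 0.10), the kinase subunit Prkab2 (0.52 ± 0.08), the cilium protein Cys1 (0.54 ± 0.09) and Olfml2b (0.56 ± 0.09). Among falls they were those of Wnt9a (-1.13 ± 0.15), Usp2 (-0.49 ± 0.07), Cirbp (-0.51 ± 0.08), the nuclear protein Fam50a (-0.40 ± 0.07) and Tfrc (-0.54 ± 0.10). In CFC the rises were those of Tsc22d3 (0.70 ± 0.10), the volume-regulated channel subunit Lrrc8c (0.43 ± 0.06), Dusp5 (0.58 ± 0.09), the collagen-modifying P4ha1 (0.51 ± 0.08) and the transcription factor Sox11 (0.48 ± 0.08). The falls in CFC were those of Usp2 (-0.51 ± 0.07), Wnt9a (-1.07 ± 0.15), Srsf5 (-0.64 ± 0.10), Cirbp (-0.47 ± 0.08) and Kcna4 (-0.53 ± 0.09). Tsc22d3 differed most between the arms among the 30 named genes, at 0.25 in NoCFC and 0.70 in CFC, a difference of 0.45 ± 0.14 (log2, SE) with an unadjusted p of 0.00282 and an adjusted p of 1.

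Of 26 ER chaperones, 2 rose in NoCFC (median 0.18) and 6 in CFC (median 0.20). Of 51 activity-regulated genes, 2 rose in each arm (medians 0.15 and 0.07). Over all genes tested, 0.341% rose in NoCFC and 0.494% in CFC. Hspa5 changed by 0.50 ± 0.11 in NoCFC and 0.65 ± 0.11 in CFC, log2 with SE, a difference of 0.15 ± 0.16 (unadjusted p = 0.350). Nr4a1 changed by 0.63 ± 0.14 in NoCFC and 0.25 ± 0.14 in CFC, a difference of -0.38 ± 0.20 (unadjusted p = 0.0611). Members of the lists at an unadjusted interaction p under 0.05 numbered 0 of 26 ER chaperones and 3 of 51 activity-regulated genes, against 712 of all 14968 genes. Among marker lists they were 8 of 18 for oligodendrocytes, 7 of 23 for inhibitory neurons and 5 of 20 for astrocytes. Choroid plexus had 5 of 8, oligodendrocyte precursors 3 of 11, and endothelial and mural cells 3 of 17. Microglia had 0 of 18, blood 0 of 5 and the excitatory list 0 of 15. Members of a list come from the same libraries and are not separate replicates.

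**Figure D4:**
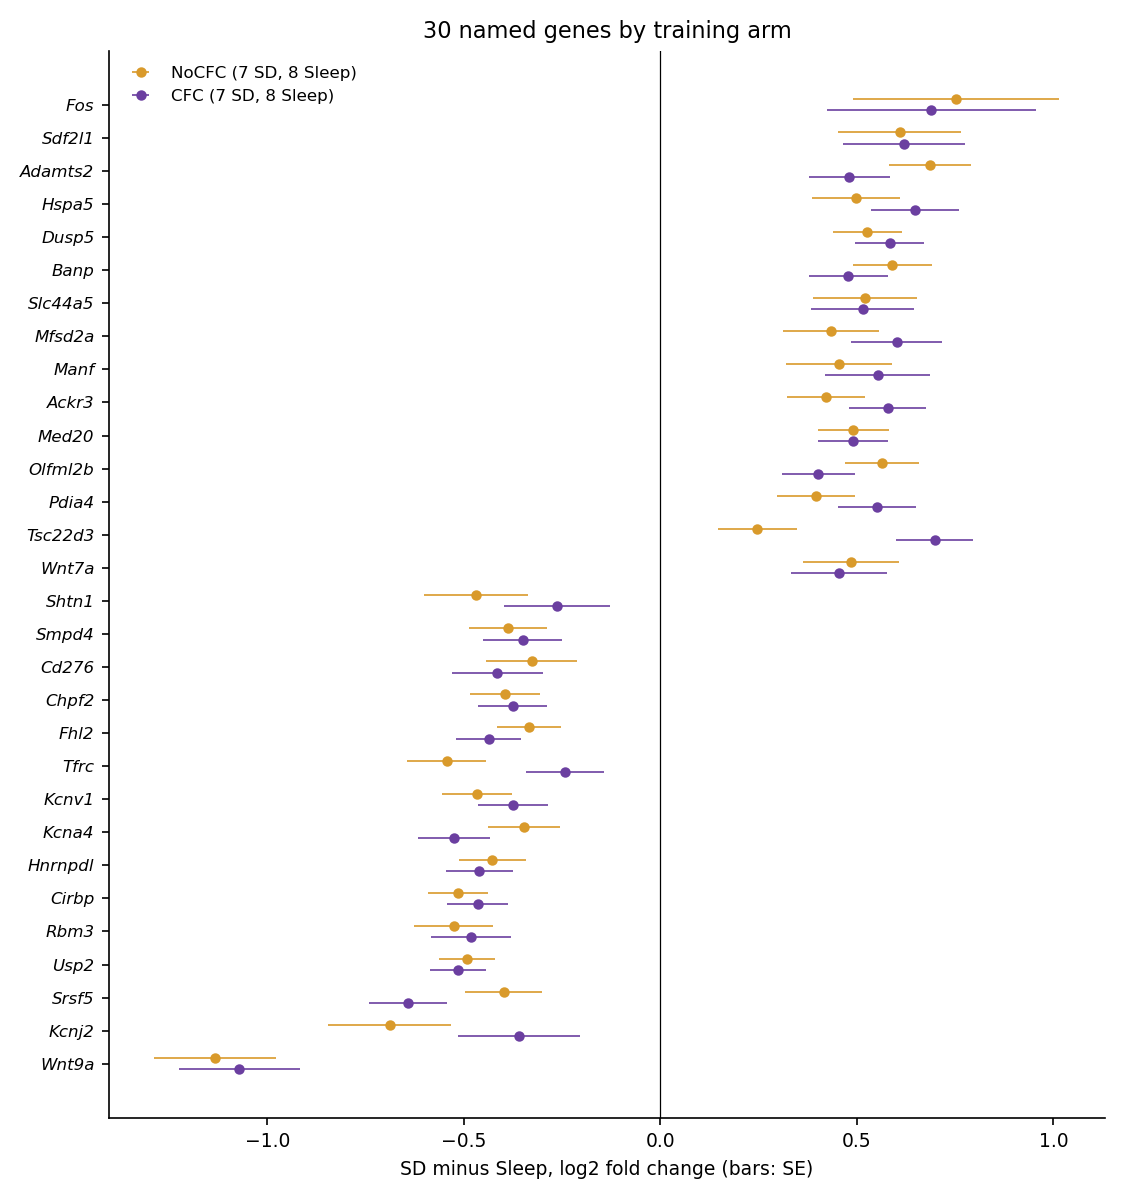
SD minus Sleep log2 fold change (horizontal, bars are SE) of the 30 genes with the largest changes, in NoCFC and in CFC (7 SD and 8 Sleep mice in each). Each gene lies on the same side of 0 in both arms, as its choice by the average favours, and Tsc22d3 shows the widest gap, 0.25 against 0.70.

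Mice of the same numbers, taken as the same mice, also gave cytosolic Camk2a ribosomes and an uncaptured membrane Input, against which the membrane values can be set. In a joint fit with the membrane libraries, 689 of 15779 genes passed for SD in the cytosolic capture (4.37%), 483 higher (3.06%) and 206 lower (1.31%). The difference between the fractions passed for 0 of 15779 genes, with 391 at an unadjusted p under 0.05, 0 in DESeq2, and 0 with the mouse as a block (591 at an unadjusted p under 0.05; smallest adjusted p 0.410). The ER chaperone mRNAs named here had higher levels in the membrane capture: that of Hspa5 was 1.78 and that of Sdf2l1 1.88 higher on the log2 scale than in the cytosolic capture. Their SD changes were side by side in the 2 fractions, 0.57 ± 0.08 and 0.50 ± 0.09 for Hspa5, and 0.61 ± 0.11 and 0.73 ± 0.13 for Sdf2l1 (log2, SE). The level of Dusp5 mRNA in the membrane over the cytosolic capture was -1.05 on the log2 scale, and its SD changes were 0.56 and 0.62. Wnt9a changed by -1.10 in the membrane and -1.17 in the cytosolic capture.

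In a joint fit of membrane Input and the membrane capture, 161 of 16128 genes passed for SD in Input (0.998%). Of these, 124 were higher (0.769%) and 37 lower (0.229%). The 444 genes above came from a fit of the membrane capture alone, so these counts are not from like fits. The difference between capture and Input passed for 0 genes, with 479 at an unadjusted p under 0.05 and 0 in DESeq2. With the mouse as a block it passed for 1, with 786 at an unadjusted p under 0.05: Sgk1, with a capture minus Input difference of -0.49 (log2; adjusted p = 5.73e-04). Sgk1 rose by 0.77 ± 0.11 in Input (log2, SE; adjusted p = 3.98e-06), and was at 0.27 ± 0.09 in the membrane capture and -0.02 ± 0.07 in the cytosolic one. Input holds all cells of the tissue. Hspa5 changed by 0.53 ± 0.08 in Input (adjusted p = 1.58e-05) and Cirbp by -0.39 ± 0.05. Wnt7a gave 0.07 ± 0.07 in Input against 0.47 in the capture, a difference of 0.39 ± 0.10 (log2, SE; unadjusted p = 2.84e-04), and Wnt9a -0.67 against -1.10, a difference of -0.44 ± 0.14 (unadjusted p = 0.00248); neither passed the adjustment over 16128 genes.

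**Figure D5:**
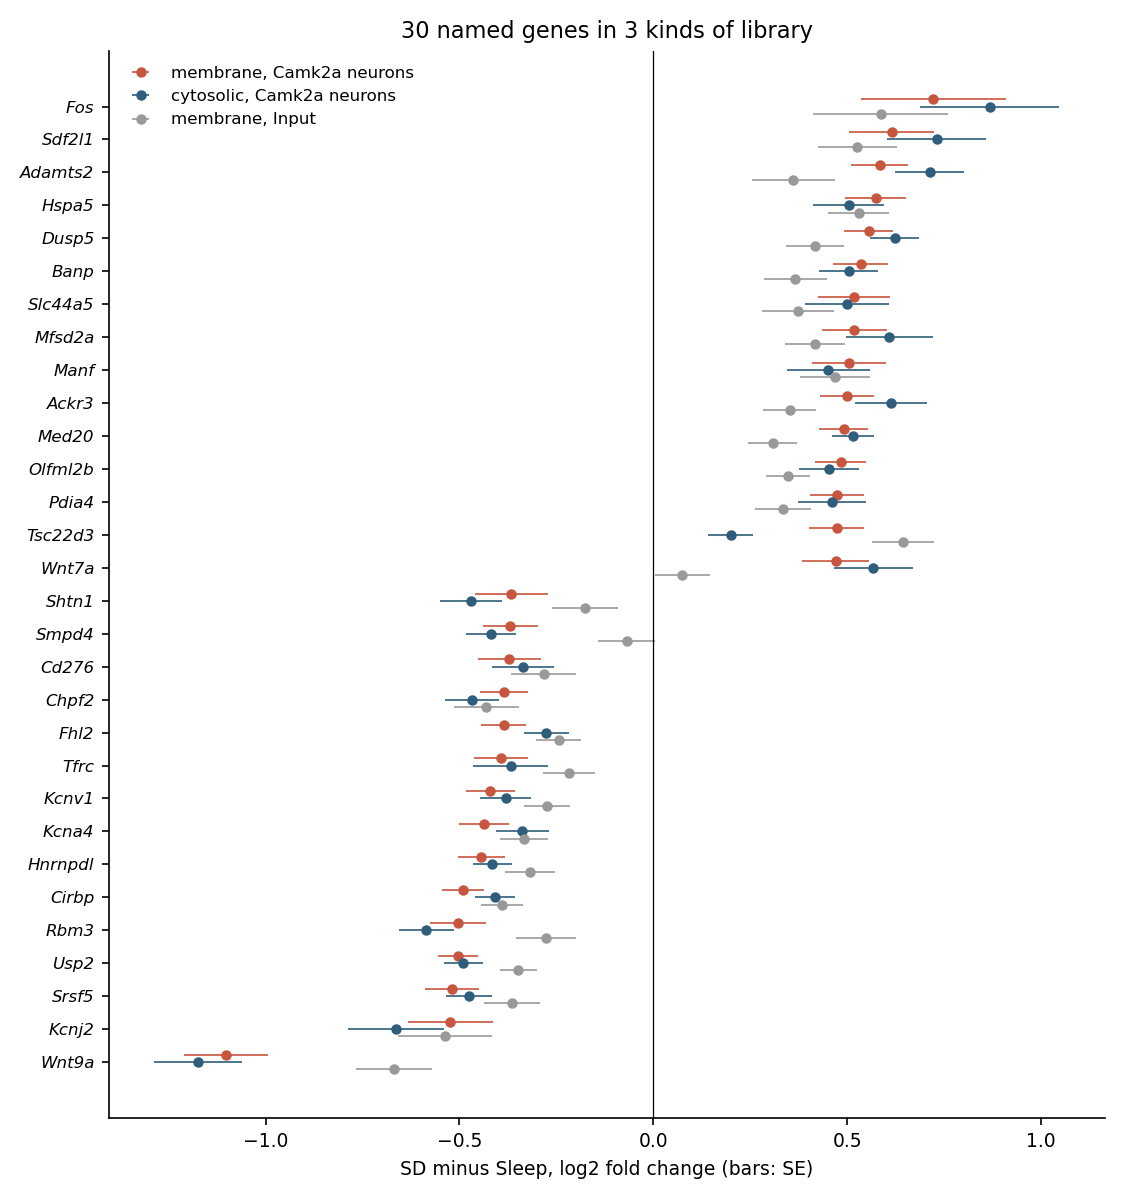
SD minus Sleep log2 fold change (horizontal, bars are SE) of the same 30 genes in the membrane and cytosolic Camk2a captures and membrane Input. Each kind has 30 libraries. Membrane capture values came from its own fit, and cytosolic and Input values from joint fits with it. Membrane and cytosolic points lie close together for most genes, Tsc22d3 being 0.47 and 0.20, and the Input point of Wnt7a lies at 0.07.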

How the data were processed

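The HA_PELL libraries were prepared with a SMART-Seq v4 kit (labels' protocols). The deposited table holds raw counts per gene, whole numbers without normalization, made by the authors with STAR 2.6.1a and featureCounts (version not given) on GRCm38.p6, per the submitters' processing notes, which also name MultiQC 1.6a0; strand, annotation and treatment of multiply mapped reads are not given in the sources used here. Columns were matched to titles by the number in each description. Genes kept by filterByExpr were TMM-scaled and fitted as 4 group means with edgeR 4.0.16 (robust quasi-likelihood F-test, R 4.3.3), with Benjamini-Hochberg adjustment over all genes tested and a threshold of 0.05. CPM are TMM-normalised, and the SE is the absolute log2 change divided by the square root of F. Tests of the difference between fractions or between capture and Input fitted both library types together. Alternatives were RLE and upper-quartile scaling, no or a stricter filter, DESeq2 1.42.0, limma-voom 3.58.1, the run of mouse numbers as a term, values within runs, each library left out in turn and the mouse as a block. Leaving out the 3 libraries with most choroid plexus markers was chosen after seeing the data. The scripts were tested on simulated data.

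The text names the 15 largest rises and falls past the threshold with an average log2 CPM of at least 3, passing over predicted genes, the 5 smallest p each way in other tests, and members of 41 gene lists. The members and lists were chosen with earlier results of these data known. Libraries of the same number were taken as of 1 mouse, since the labels' protocols say that each fraction was divided into Input and captures. Once group means were subtracted, same-numbered libraries correlated with the membrane capture at a median of 0.302 for the cytosolic capture and 0.386 for Input. Different numbers gave medians of -0.00795 and -0.0205. The lowest same-numbered values were 0.073 and 0.081. The same-numbered library was the best match in 9 of 30 cases for the cytosolic capture and in 24 of 30 for Input. Separate mice are the replicates, and no 2 libraries of a group were copies (lowest chi-square per degree of freedom 4.85). Low counts limit precision, and without molecular identifiers duplicate reads count more than once. Positions are from GENCODE vM21 on GRCm38 (53851 of 54429 symbols found), and promoters from RefSeq.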

Additional observations from a re-analysis of the deposited data

Results flagged for a closer look

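Among 148 groups of 7 or 8 libraries examined for 1 value far from the rest, 12 values stood apart, and chance alone gives about 1 in 20 groups. For genes these were Fos in NoCFC Sleep replicate 1 (17.2 CPM, the others 5.05 to 7.82), Usp2 in NoCFC SD replicate 7 (152 CPM, the others 102 to 115), Pdia4 in CFC SD replicate 29 (285 CPM, the others 149 to 199.8), Creld2 in NoCFC SD replicate 9 (78.3 CPM, the others 51.7 to 60.4), Cirbp in NoCFC Sleep replicate 4 (88.5 CPM, the others 81.8 to 84.8), Kcna4 in NoCFC Sleep replicate 3 (43.3 CPM, the others 53.0 to 59.4) and Med20 in CFC Sleep replicate 14 (6.81 CPM, the others 8.001 to 8.88).

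For markers, the summed choroid plexus level stood apart in 1 library of each group: 2408 CPM in CFC SD replicate 22, 1807 in NoCFC Sleep replicate 2, 912 in CFC Sleep replicate 14 and 585 in NoCFC SD replicate 7. The summed endothelial and mural level did so in CFC Sleep replicate 13, at 2233 CPM.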

How the results depend on the processing

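The SD effect averaged over training passed in 307 to 486 genes when each library was left out in turn (211 to 331 higher, 85 to 168 lower), and NoCFC SD replicate 10 moved the higher calls most. The NoCFC arm gave 32 to 74 (22 to 57 higher, 10 to 20 lower) and the CFC arm 61 to 182 (45 to 117 higher, 16 to 65 lower), so these counts rest on single libraries, among them NoCFC SD replicate 28, NoCFC Sleep replicate 2, CFC SD replicate 29 and CFC Sleep replicate 13. The interaction gave 0 in each of these fits. Upper-quartile scaling gave 215 higher calls for the average and 32 in NoCFC. DESeq2 called 141 genes in NoCFC (110 higher, 31 lower) and 207 in CFC (141 higher, 66 lower). The run of mouse numbers as a term gave 118 higher in CFC. Within mice 1 to 11, 12 to 22 and 23 to 30 the calls were 16 (10 higher, 6 lower), 21 (14 and 7) and 37 (25 and 12), with fewer mice in each. Without the 3 libraries with most choroid plexus markers NoCFC had 31 calls (21 higher) and CFC 20 lower. Of the 444 genes, 306 also passed there, 335 with upper-quartile scaling, 302 with no filter and 416 in DESeq2.

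With the mouse as a block, the replicate block gave 0 calls between fractions and 1 between capture and Input, which was lower (Sgk1); it changed no other call among the 64 named results fitted with it. The cause of these differences was not tested. No named gene that passed changed sign. Depth limits low genes such as Fos and Egr2.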
